A study of Rattus norvegicus with 4 samples.

Results

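Potassium channels and the hyperpolarisation-activated Hcn channels were followed here in vestibular ganglion neurons of the rat. The members were all probes whose single gene symbol on the array's annotation starts with Kcn, or with Hcn and a digit. Of 106 such probes for 74 genes among the 35126 probes of the array, 89 probes for 66 genes could be read. The other 17 lie in a stretch of the table where names and values could not be paired, while 8 genes (Kcnab2, Kcnd1, Kcng1, Kcnh7, Kcnj14, Kcnj9, Kcns1 and Kcnv2) have probes only there and were not analysed here. The rule for members used gene symbols and no measured value, but it was set with earlier results of these data known.

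Cells were taken from rat vestibular ganglia by laser capture under calretinin immunofluorescence, pooled, and their total RNA was profiled on 1-colour (Cy5) arrays. The submitters' design text identifies the positive cells with calyx-forming afferents and the negative cells with afferents of dimorphic or bouton type. Each of the 2 groups has 2 arrays, and no treatment, strain or age is given in the labels. The groups follow the sample titles, because the descriptions of all 4 samples speak of positive cells. Below, a library is named by the label in its title. The question was which channel genes differ between these afferent classes.

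Potassium channels set the resting potential and bring the membrane back after a spike. Voltage-gated families (Kcna, Kcnb, Kcnc, Kcnd, Kcnq, Kcnh) open on depolarisation, calcium-activated channels (Kcnma1, Kcnn) open after calcium entry, inward rectifiers (Kcnj) and tandem-pore channels (Kcnk) act near rest, and Hcn channels carry an inward cation current on hyperpolarisation. In vestibular ganglion neurons, low-voltage-activated potassium currents and the Hcn current are known to shape whether a neuron fires in a transient or a sustained way.

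Across the array the groups differed widely, which sets the scale for every channel gene. Calb2, the calretinin gene, was used to choose the cells and is no finding. Its probe was bright in both groups, with 291 and 328 in the libraries labelled positive and 138 and 129 in those labelled negative. Across tested probes the positive arrays correlated at r = 0.9896, the negative arrays at 0.9944 and arrays of different groups at 0.9255 to 0.9284. In the libraries labelled positive, 5 of 5 markers tested for Schwann and satellite glia and 5 of 6 endothelial and mural markers were lower. The background was 21.3% of all named genes tested, and the other marker lists are given below. The design text speaks of pools but does not say whether the arrays of a group came from different animals or captures, so p-values measure only the spread between these arrays, which may be technical.

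A probe was tested when its mean log2 intensity lay at or above the 40th percentile of the array, which corresponds to an intensity of 0.456, on a scale where each array's median is near 0.99. By this limit 39 of the 66 genes were tested through their brightest probe and 27 were not. Among the 39, 24 genes had an adjusted p under the threshold of 0.05 (limma, Benjamini-Hochberg over 21070 probes), 16 higher and 8 lower where the label was positive. That is 61.5% of those tested, where 66.6% of all 8172 named genes tested in the same way passed (45.3% higher and 21.3% lower), so the share called was near the background. Of the 24, 8 were at least 2-fold higher and 3 at least 2-fold lower, 28.2% of those tested against a background of 13.3% (7.27% higher and 6% lower). The groups did not overlap for 30 of the 39, against a background of 83.9% of genes and 81.7% of probes. Counted by probe, 30 of 49 tested channel probes were called, 20 higher and 10 lower, where the background was 64.2% of all probes, 40.6% higher and 23.6% lower. The counts include Kcnj8, whose probe passed the filter only through the negative group, where it is high, and so had to differ. Among the 37 tested genes with both groups above the limit, 23 were called (62.2%), 16 higher and 7 lower, and 10 by at least 2-fold, 2 of them lower. The same restriction was not applied to all named genes, so these counts have no like background and are not read against one. Of the probes, at least 2-fold were 13, 10 higher and 3 lower, on a background of 15.3%, 8.28% higher and 7.07% lower. The probe counts also include, among those higher, a Kcnab1 probe that passed the filter only through the positive group and so had to differ. The median log2 change, positive minus negative, was 0.07 for the channel genes and 0.17 for all named genes tested.

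The scaling of the arrays bears on the small differences. Over all tested probes the median log2 change was 0.11 in the values as deposited and 0.01 and -0.01 after quantile and cyclic loess normalization, and for probes with a mean log2 above 4 it was 0.23 before normalization. The split of the called channel genes, 16 higher and 8 lower, became 13 and 8 with quantile and 12 and 11 with loess normalization. Tested on the spread of their own probe alone, without the prior that limma shares across probes, 15 channel genes were called; Kcnh2, Kcnj5, Kcnj6, Kcnk1, Kcnk3, Kcnk12, Kcnn1, Kcnq5 and Kcnt1 were not. Of the 24 calls, 20 were kept in the same direction with quantile and 20 with loess normalization. Kcnj5, Kcnk1 and Kcnk12 were lost with either, Kcnt1 with quantile and Kcna2 with loess, and Kcna1, Kcnd3 and Kcnj10 gained a call as lower with at least 1 of them.

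**Figure D1:**
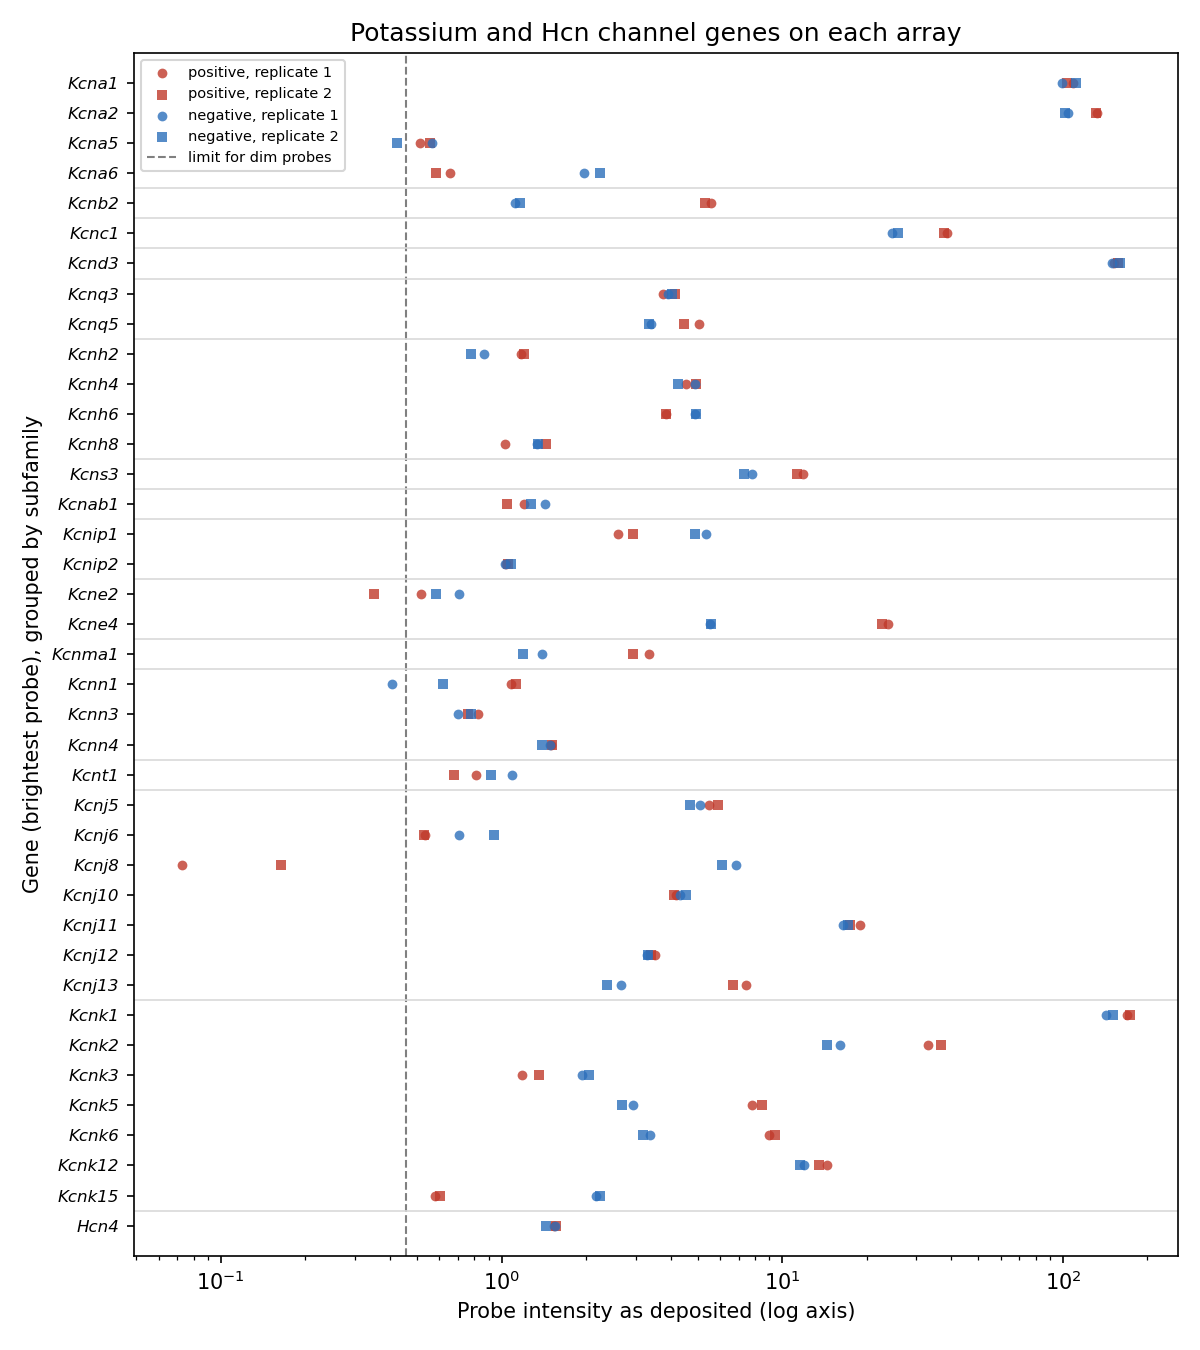
Intensity of the brightest probe of each of the 39 tested channel genes on each array (x axis, log scale, unit as deposited); red marks the libraries labelled positive and blue those labelled negative, circles replicate 1 and squares replicate 2, and the dashed line the limit of 0.456. Kcnb2, Kcne4, Kcnk5 and Kcnk6 lie to the right in red, Kcna6, Kcnk15 and Kcnj8 in blue, while the Kcna1 and Kcnd3 points of both groups overlap.

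The 11 genes that differed at least 2-fold are Kcnb2, Kcne4, Kcnk5, Kcnk6, Kcnj13, Kcnma1, Kcnk2 and Kcnn1, higher, and Kcnk15, Kcna6 and, by a fitted value that is no measure of size, Kcnj8, lower. Of these, 7 had an entry in the RefSeq promoter table (build GRCr8) and 6 of them a single start site. Kcnb2, Kcnk15, Kcnk6 and Kcnn1 had no entry, so the genes shown are not all those that differed most. Genes were ranked by fitted change, so Kcnj8 enters by a value that is no measure of size. The 250 bases upstream are printed for the 2 higher and the 2 lower genes with the largest fitted changes among the 6 with a single start site. They are Kcne4 (chr9:87695798-87696047, plus strand), Kcnk5 (chr15:4171375-4171624, plus strand), Kcnj8 (chr4:177246549-177246798, minus strand) and Kcna6 (chr4:161262353-161262602, minus strand). Each is given 5′ to 3′ on the gene's own strand, and capitals mark matches on either strand to the TATA box (TATAAA), the GC box (GGGCGG), the CCAAT box (CCAAT) or the E-box (CACGTG), which reads the same on both strands.
Kcne4: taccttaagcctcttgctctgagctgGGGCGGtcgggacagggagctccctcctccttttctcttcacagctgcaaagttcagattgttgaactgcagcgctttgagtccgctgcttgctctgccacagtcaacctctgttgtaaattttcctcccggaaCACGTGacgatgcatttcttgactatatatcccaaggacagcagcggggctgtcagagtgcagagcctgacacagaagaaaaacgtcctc
Kcnk5: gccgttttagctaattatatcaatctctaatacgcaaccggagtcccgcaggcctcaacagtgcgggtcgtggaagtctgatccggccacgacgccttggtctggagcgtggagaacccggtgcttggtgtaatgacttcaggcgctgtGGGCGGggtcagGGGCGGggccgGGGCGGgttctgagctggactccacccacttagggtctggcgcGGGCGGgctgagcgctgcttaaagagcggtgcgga
Kcnj8: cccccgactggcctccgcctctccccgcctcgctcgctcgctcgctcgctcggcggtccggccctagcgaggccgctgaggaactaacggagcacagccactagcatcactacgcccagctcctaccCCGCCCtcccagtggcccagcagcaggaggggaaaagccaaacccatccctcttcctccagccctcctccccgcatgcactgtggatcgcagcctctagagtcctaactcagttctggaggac
Kcna6: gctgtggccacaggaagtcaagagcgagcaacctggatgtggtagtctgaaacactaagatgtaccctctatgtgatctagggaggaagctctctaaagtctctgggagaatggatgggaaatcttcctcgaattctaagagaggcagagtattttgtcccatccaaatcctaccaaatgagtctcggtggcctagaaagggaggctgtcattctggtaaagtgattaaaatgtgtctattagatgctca
GC boxes were found 4 times before Kcnk5 and 1 time each before Kcne4 and Kcnj8, on a background of 30.5% of 33469 promoters with at least 1. The E-box before Kcne4 is a motif of 5.59% of promoters, while the TATA box (12.9%) and the CCAAT box (34%) had no match in the 4 windows. The GC content was 62.8% before Kcnk5, 66.8% before Kcnj8, 52.4% before Kcne4 and 45.6% before Kcna6, with a median of 51.2% over all promoters. A match is a description of the letters and not a binding site.

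Among the Kcna genes, whose subunits form low-voltage-activated channels of axons, 4 of 6 were tested, and Kcna1, the most studied member in axons, did not differ as deposited. Its brighter probe had 108 and 103 in the libraries labelled positive and 99.4 and 111 in those labelled negative, with overlapping groups (log2 change 0.01 ± 0.08, SE; adjusted p = 0.959, limma, Benjamini-Hochberg), and -0.26 after loess normalization (adjusted p = 0.0142). Kcna2, which joins Kcna1 in axonal channels, was measured by a pair of bright probes that disagreed. The brighter had 132 and 131 against 104 and 102, a log2 difference of 0.35 (adjusted p = 0.00134). The other had 73.5 and 70.2 against 88.3 and 86.5, a log2 difference of -0.28 (adjusted p = 0.00479). Both were called, in opposite directions, so no direction is given for the gene. The counts of genes called higher still include it, through its brighter probe.

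Kcna6, another subunit of delayed rectifiers, was lower. Its brighter probe had 0.655 and 0.582 in the libraries labelled positive and 1.97 and 2.25 in those labelled negative, 3.40-fold lower (log2 change -1.77 ± 0.14, SE; adjusted p = 3.29e-06, limma, Benjamini-Hochberg). The groups lie well apart on this probe. A dimmer Kcna6 probe had 0.661 and 0.914 against 0.737 and 0.558, with overlapping groups and an adjusted p of 0.313, so the difference rests on 1 probe. Kcna5 had 0.511 and 0.557 against 0.567 and 0.422 and did not pass, and Kcna3 and Kcna4 were below the limit.

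Kcnb2, a delayed rectifier subunit of cell bodies and proximal dendrites, showed the largest rise of the channel genes. Its intensity was 5.55 and 5.32 in the libraries labelled positive and 1.12 and 1.17 in those labelled negative. It was 4.77-fold higher (log2 change 2.25 ± 0.08, SE; adjusted p = 3.79e-08, limma, Benjamini-Hochberg). The spread within each group was small beside that gap. A dimmer probe of Kcnb2 had 0.628 and 0.78 against 0.536 and 0.798 and did not pass (adjusted p = 0.742). The rise thus rests on 1 probe. In a bulk sample such as these captures, fewer cells of a type and less RNA per cell cannot be told apart.

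Kcnc1, which encodes a fast delayed rectifier of neurons that fire at high rates, was higher. It had 38.5 and 37.7 in the libraries labelled positive and 24.6 and 25.9 in the negative ones, a log2 difference of 0.59 ± 0.07 (SE; adjusted p = 3.93e-05, limma, Benjamini-Hochberg) that was 0.36 with quantile and 0.38 with loess normalization and stayed called. Kcnc2 was below the limit on both of its probes. Kcnd3, an A-type channel gene, did not differ on its brightest probe, with 152 and 157 against 149 and 160 (adjusted p = 0.975). After quantile and loess normalization the same probe gave -0.27 and -0.28 and was called lower. A second bright Kcnd3 probe had 71.2 and 67.9 against 54.4 and 56.1 and was called higher (log2 change 0.33, adjusted p = 0.00189), but not after quantile normalization (adjusted p = 0.492). Kcnd2, the other Kcnd gene read, was below the limit in both groups, with 0.221 and 0.25 against 0.0973 and 0.0839.

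The Kcnq genes encode the slow, non-inactivating M-type channels. Kcnq5 had 5.04 and 4.46 in the libraries labelled positive and 3.42 and 3.35 in the negative ones, a log2 difference of 0.49 ± 0.08 (SE; adjusted p = 0.000548, limma, Benjamini-Hochberg; 0.0724 on its own spread), and its groups did not overlap. Kcnq3, a partner in these channels, had 3.77 and 4.16 against 3.93 and 4.06 and did not pass (log2 change -0.01, adjusted p = 0.905). Kcnq1, best known from heart and inner ear epithelium, had 0.471 and 0.508 against 0.201 and 0.11 and was not tested.

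Of the Kcnh genes, relatives of the erg channels, 4 of 7 were tested, with 1 higher and 1 lower, on a background of 66.6% of all named genes (45.3% higher and 21.3% lower). Kcnh2, an erg channel gene that contributes to repolarisation, had 1.18 and 1.2 against 0.867 and 0.776, a log2 difference of 0.54 ± 0.14 (SE; adjusted p = 0.00768, limma, Benjamini-Hochberg; 0.0585 on its own spread). Kcnh6 went the other way, with 3.86 on both positive arrays against 4.9 and 4.92, a log2 difference of -0.35 (adjusted p = 0.00154). The groups did not overlap for either gene. Kcnh4 had 4.53 and 4.93 against 4.87 and 4.26, with overlapping groups, and Kcnh8 had 1.03 and 1.44 against 1.34 and 1.35, also overlapping.

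The electrically silent subunits (Kcnf, Kcng, Kcns, Kcnv) form no channel alone and modify Kcnb channels. Of 7 read, only Kcns3 was above the limit. It had 11.9 and 11.3 in the libraries labelled positive and 7.81 and 7.33 in the negative ones, a log2 difference of 0.62 ± 0.07 (SE; adjusted p = 4.19e-05, limma, Benjamini-Hochberg). Kcns3 and Kcnb2 were thus both higher in the libraries labelled positive.

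**Figure D2:**
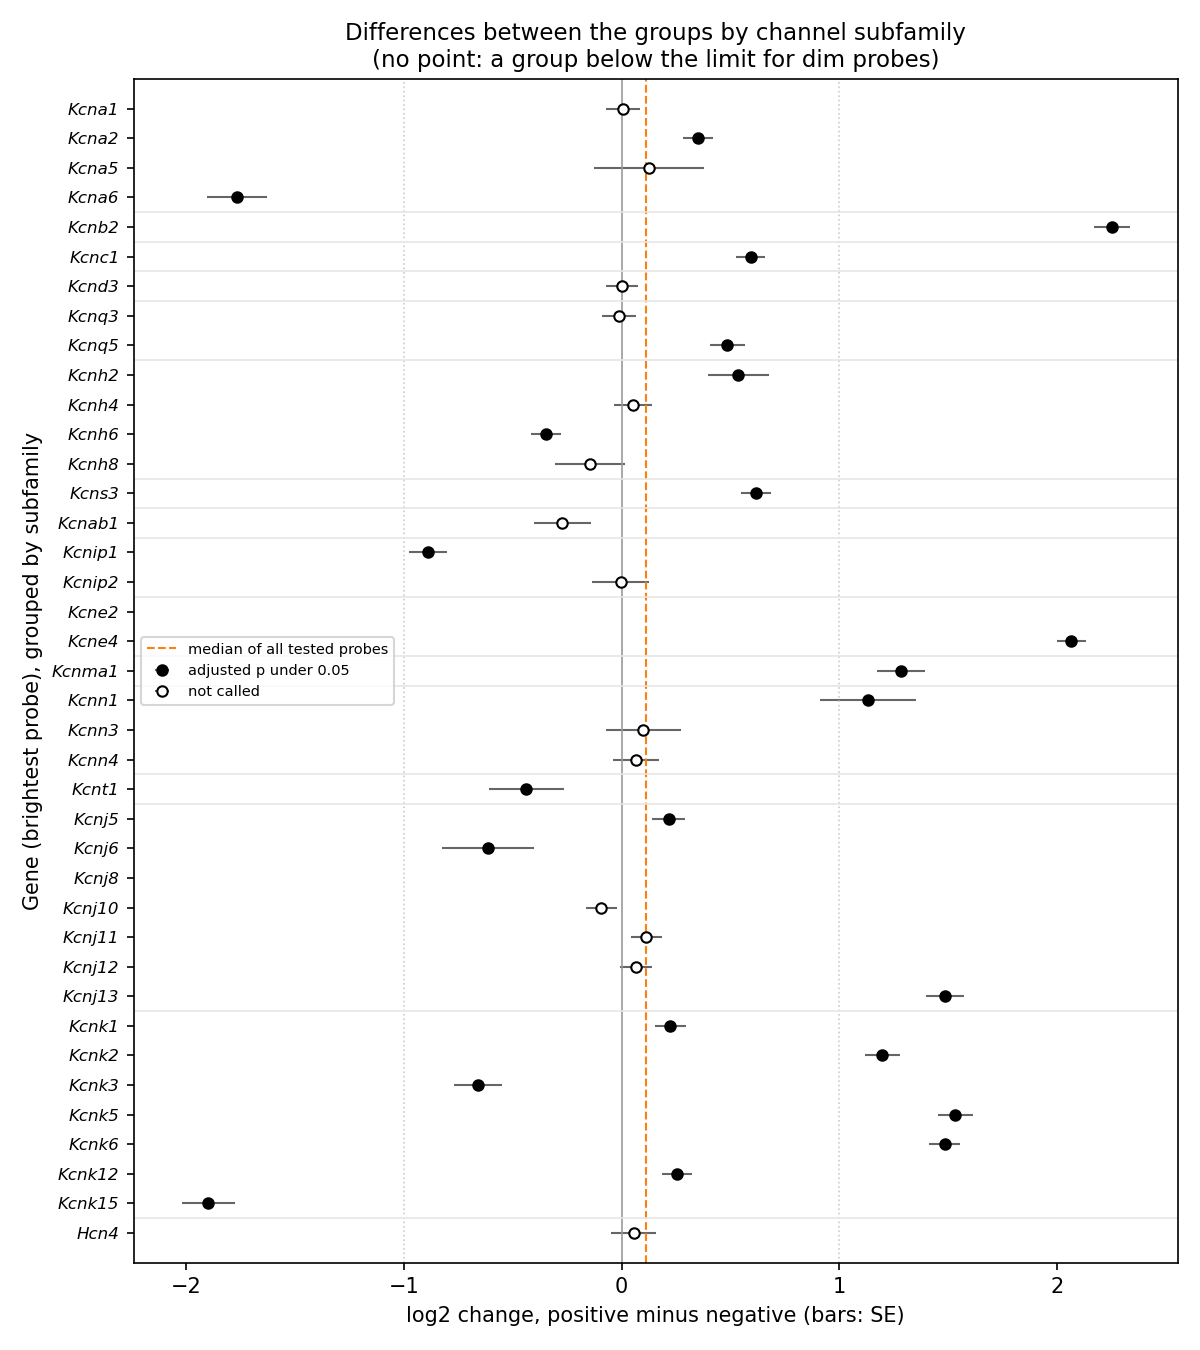
Log2 change, positive minus negative, with its SE (x axis) for the brightest probe of the 37 tested genes with both groups above the limit, grouped by subfamily (Kcnj8 and Kcne2 have no point); filled points passed an adjusted p of 0.05, dotted lines mark 2-fold and the orange line the median of all tested probes, 0.11. The 7 tested Kcnk genes are all filled, 5 to the right and 2 to the left, and Kcnb2 at 2.25 and Kcne4 at 2.07 lie farthest to the right.

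Among auxiliary subunits, Kcne4 stood out. It encodes a small membrane protein known to inhibit certain Kcna and Kcnq channels, and its intensity was 23.7 and 22.7 in the libraries labelled positive and 5.52 and 5.56 in those labelled negative. It was 4.19-fold higher (log2 change 2.07 ± 0.07, SE; adjusted p = 1.77e-08, limma, Benjamini-Hochberg). Kcne2 had 0.517 and 0.351 against 0.706 and 0.583 and did not pass, and Kcne1 was below the limit. Kcnip1, a calcium sensor that binds A-type channels, was lower, with 2.6 and 2.93 against 5.37 and 4.88 (1.85-fold, adjusted p = 1.66e-05). Its relative Kcnip2 had 1.04 and 1.06 against 1.03 and 1.08 and did not differ beyond the spread (adjusted p = 0.978).

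Kcnab1, a beta subunit that speeds inactivation of Kcna channels, gave a split result. Its brightest probe had 1.2 and 1.04 against 1.43 and 1.28 and did not pass (log2 change -0.27, adjusted p = 0.0943, limma, Benjamini-Hochberg). A second probe had 1.32 and 1.3 in the libraries labelled positive and 0.23 and 0.341 in those labelled negative, where it was below the limit. That probe passed the filter only through the positive group, so it had to differ and no test or fold is given for it. The groups lie in opposite order on the 2 probes, and no direction is given for the gene.

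The calcium-activated channel genes that passed were higher. Kcnma1 encodes the large-conductance channel opened by calcium and depolarisation, and its brightest probe had 3.34 and 2.93 in the libraries labelled positive and 1.40 and 1.19 in those labelled negative. It was 2.43-fold higher (log2 change 1.28 ± 0.11, SE; adjusted p = 7.3e-06, limma, Benjamini-Hochberg). A second Kcnma1 probe, from the other part of the table, had 1.26 and 1.46 against 0.594 and 0.727 and was higher too (log2 change 1.05 ± 0.16, SE; adjusted p = 0.000358). Both probes separate the groups in the same direction. A further probe was below the limit in both groups and not tested. It ran the other way at low level, with 0.0709 and 0.161 against 0.293 and 0.168.

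Kcnn1, a small-conductance channel gene of the spike afterhyperpolarisation, had 1.08 and 1.13 in the libraries labelled positive and 0.409 and 0.621 in those labelled negative. It was 2.19-fold higher (log2 change 1.13 ± 0.22, SE; adjusted p = 0.00141, limma, Benjamini-Hochberg), though not on its own spread (adjusted p = 0.115), since the negative arrays differed. Kcnn3 had 0.822 and 0.758 against 0.699 and 0.778, with overlapping groups, and Kcnn4 had 1.5 and 1.51 against 1.49 and 1.39 (adjusted p = 0.618). Kcnt1, a sodium-activated channel gene, had 0.809 and 0.675 against 1.09 and 0.92 and was lower just inside the threshold (adjusted p = 0.0478). That call was lost with quantile normalization (adjusted p = 0.0592), without positive replicate 2 (adjusted p = 0.171) and without negative replicate 1 (adjusted p = 0.248). Kcnmb1, an accessory subunit of the large-conductance channel, was below the limit, and no Kcnn2 probe was read.

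Of 11 inward rectifier genes, 7 were tested, with 2 higher and 2 lower, on a background of 66.6% of all named genes (45.3% higher and 21.3% lower). Kcnj8 encodes the pore of an ATP-sensitive channel known from mural cells of vessels. Its brighter probe had 0.0724 and 0.164 in the libraries labelled positive, below the limit, and 6.85 and 6.11 in those labelled negative. It passed the filter only through the negative group, so it is described by these levels, with no fold or test. A dimmer probe under the same name was not tested and ran the other way at low level, with 0.888 and 0.88 against 0.119 and 0.0088. The brighter probe is thus high in both negative libraries and near the floor in both positive ones, and the second does not bear it out.

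Abcc9, the sulphonylurea receptor that pairs with Kcnj8 in that channel, had 0.515 and 0.495 in the libraries labelled positive and 6.55 and 6.36 in the negative ones, a log2 difference of -3.68 ± 0.09 (SE; adjusted p = 4.56e-09, limma, Benjamini-Hochberg). Its positive values lie just above the limit of 0.456, so the size of that change is uncertain. Of the endothelial and mural markers, 5 of 6 tested were lower and 0 higher, on a background of 21.3% of all named genes lower. Lower were the endothelial Pecam1, Esam, Tek and, by a log2 change of -0.19, Flt1, and of the mural markers Tagln alone. The summed intensity of the 8 measured, to which Tek and Flt1 gave much, was 21 to 21.5 in the libraries labelled positive and 48.5 to 49.9 in those labelled negative. Pecam1 had 2.35 and 2.25 against 8.79 and 8.66, Rgs5, a pericyte marker, 2.20 and 1.91 against 1.94 and 1.87 with overlapping groups, and Acta2 and Kdr were below the limit. The part of these cells in the Kcnj8 result was not tested.

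Kcnj13, known from epithelia such as choroid plexus and retinal pigment epithelium, was higher. It had 7.40 and 6.67 against 2.66 and 2.37, 2.80-fold (log2 change 1.48 ± 0.09, SE; adjusted p = 6.05e-07, limma, Benjamini-Hochberg), and the groups lie well apart. The other Kcnj calls were small. Kcnj5, a G-protein-gated channel subunit, was higher on both of its probes (log2 change 0.22 and 0.32), of which the brighter lost its call with either normalization, without positive replicate 2 (adjusted p = 0.156), without negative replicate 2 (0.18) and on its own spread (0.178). Kcnj6, of the same G-protein-gated type, had 0.531 on both positive arrays against 0.704 and 0.94 (log2 change -0.62, adjusted p = 0.0281, limma, Benjamini-Hochberg). That call was lost without negative replicate 2 (adjusted p = 0.243), with no filter on dim probes (0.0623) and on its own spread (0.155).

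Kcnj10, the main potassium-buffering channel of satellite and other glia, did not pass. It had 4.18 and 4.13 against 4.32 and 4.55 (log2 change -0.09 ± 0.07, SE; adjusted p = 0.281, limma, Benjamini-Hochberg), and -0.21 with loess normalization, where it was called lower (adjusted p = 0.0312). Over the same arrays the glial markers of Schwann and satellite cells were lower in 5 of 5 tested, on a background of 21.3% of all named genes lower. Cdh19, Erbb3 and Mag were too dim on average to be tested. The summed intensity, to which Prx gave the most, was 111 to 121 in the libraries labelled positive and 229 to 244 in those labelled negative. Sox10, for example, had 1.13 and 1.46 against 6.09 and 6.12. Kcnj11, the neuronal ATP-sensitive pore, had 19.0 and 17.4 against 16.4 and 17.2 and did not pass (adjusted p = 0.195), whereas its dimmer probe was lower (log2 change -0.76, adjusted p = 0.00013). Abcc8, its usual receptor partner, had 1.25 and 1.63 against 0.849 and 1.09 and was higher (log2 change 0.57, adjusted p = 0.0156). Kcnj12 had 3.53 and 3.41 against 3.30 and 3.33 and did not pass.

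All 7 tested tandem-pore (Kcnk) genes of the 10 read passed, 5 higher and 2 lower, against a background of 66.6%. Of these calls, Kcnk1, Kcnk3 and Kcnk12 were not made on their own spread. Kcnk5 and Kcnk6, background channels of many epithelia and other cells, were higher by similar amounts. Kcnk5 had 7.77 and 8.45 in the libraries labelled positive and 2.93 and 2.68 in those labelled negative, 2.89-fold (log2 change 1.53 ± 0.08, SE; adjusted p = 2.93e-07, limma, Benjamini-Hochberg). Kcnk6 had 8.94 and 9.42 against 3.37 and 3.19, 2.80-fold (log2 change 1.48 ± 0.07; adjusted p = 1.87e-07). For either gene the lowest positive array lies far above the highest negative one.

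Kcnk2, a mechanically and lipid-gated background channel of sensory neurons, had 33.1 and 36.9 in the libraries labelled positive and 16.1 and 14.4 in those labelled negative. It was 2.29-fold higher (log2 change 1.2 ± 0.08, SE; adjusted p = 1.53e-06, limma, Benjamini-Hochberg) and just short of 2-fold with quantile and loess normalization (0.989 and 0.996), still called. Kcnk1 and Kcnk12 differed little, with log2 changes of 0.22 and 0.25. For Kcnk1, a bright probe with 170 and 173 against 143 and 151, normalization turned the sign (-0.03 with quantile and -0.06 with loess, not called), and the call was lost without positive replicate 2 (adjusted p = 0.0784) and without negative replicate 1 (adjusted p = 0.12). Kcnk12 was not called with either normalization, nor without positive replicate 1 (adjusted p = 0.0602).

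The lower Kcnk genes were Kcnk15 and Kcnk3, both of the acid-sensitive branch of the family. Kcnk15 had 0.58 and 0.604 in the libraries labelled positive and 2.17 and 2.24 in those labelled negative, 3.73-fold lower (log2 change -1.90 ± 0.12, SE; adjusted p = 1.1e-06, limma, Benjamini-Hochberg). Kcnk3 had 1.18 and 1.35 against 1.94 and 2.05, a log2 difference of -0.66 ± 0.11 (SE; adjusted p = 0.000557; 0.064 on its own spread). Kcnk9, of the same branch, was below the limit on both probes. Kcnk10 and Kcnk13 were below the limit too.

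Of the Hcn genes only Hcn4 was bright enough to test. It had 1.54 and 1.56 in the libraries labelled positive and 1.55 and 1.44 in those labelled negative, with overlapping groups (log2 change 0.06 ± 0.10, SE; adjusted p = 0.663, limma, Benjamini-Hochberg). Hcn3 had 0.0585 and 0.183 against 0.487 and 0.542, and Hcn2 a missing value and 0.182 against 0.409 and 0.486; neither was tested. Both were dimmer in the libraries labelled positive, at levels below or just around the limit.

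The 27 untested genes had no array value above 0.548, and 25 of them lay below the limit in both groups. A probe below the limit does not show that the transcript is absent. Levels of different probes for 1 gene bore no relation to each other on this array (r = 0.06 over 1035 pairs of probes in the first part of the table, as a description across probes, which are not replicates). Intensities are therefore compared between arrays for 1 probe and not between genes. The levels also do not bear out the pairing of names and values, in the first part or between the parts. That pairing rests on the correlated changes of paired probes, given below.

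Several channel genes were read by more than 1 probe. Of 9 channel genes with more than 1 tested probe, Kcnma1 and Kcnj5 had the same call on every tested probe, Kcnn4 had none, Kcna2 had opposite calls, and 5 (Kcna6, Kcnab1, Kcnb2, Kcnd3 and Kcnj11) were called on some probes only, Kcnab1 through the probe with a group below the limit. Over all genes, for pairs with a mean log2 above 1 on both probes, changes correlated at r = 0.28 over 186 pairs of the first part, as a description. Most of the 11 genes that differed at least 2-fold, Kcne4, Kcnj13, Kcnk2, Kcnk5, Kcnk6, Kcnk15 and Kcnn1, were read by a single probe and have no such check. The calls of Kcnb2, Kcnj13, Kcnk2, Kcnk5 and Kcnn1 come only from the last part of the table. They depend on reading its values 5 rows later.

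**Figure D3:**
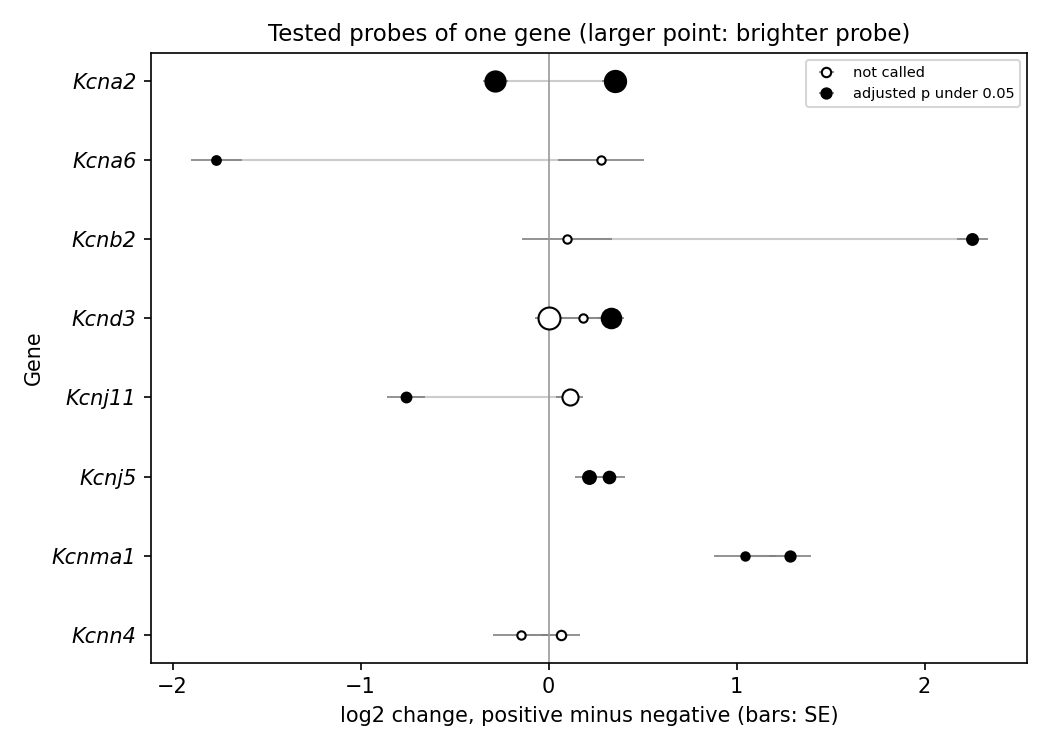
Log2 change, positive minus negative, with its SE (x axis) of every tested probe with both groups above the limit, for the channel genes with more than 1 such probe (Kcnab1 is not drawn); filled points passed an adjusted p of 0.05 and larger points are brighter probes. The Kcnma1 points lie together at 1.05 and 1.28, those of Kcnb2 at 0.10 and 2.25, and those of Kcna2 on either side of 0.

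Genes that place or assemble these channels were counted from a list of 26. Of 14 with a probe read, 12 were tested, 3 higher, 3 lower and 6 not passing, on a background of 66.6% of all named genes (45.3% higher and 21.3% lower), with a median log2 change of -0.0015 where all tested probes had 0.11. Higher were Abcc8, Calm2 and the scaffold gene Akap9, which had 29.9 and 25.3 against 13.6 and 11.5 (log2 change 1.14, adjusted p = 9.28e-06, limma, Benjamini-Hochberg). Lower were Abcc9, Cntn2 and Sptbn4. Sptbn4, a spectrin that anchors Kcnq and sodium channels at nodes and initial segments, had 18.1 and 19.5 against 39.0 and 39.7 (log2 change -1.06, adjusted p = 1.03e-06). Cntn2, an adhesion molecule that holds Kcna channels beside the node and is made by neurons and glia, had 7.56 and 7.13 against 10.99 and 11.7 (log2 change -0.63, adjusted p = 4.12e-05). With either normalization 2 were higher and 4 lower.

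Of 11 potassium pump and cotransporter genes, 6 were tested, 1 higher and 2 lower, on the same background of 66.6% called. Slc12a5, the neuronal potassium-chloride cotransporter, had 0.493 and 0.536 in the libraries labelled positive and 13.7 and 12.4 in those labelled negative (log2 change -4.67 ± 0.09, SE; adjusted p = 1.18e-09, limma, Benjamini-Hochberg). Here too the positive values lie just above the limit of 0.456, and the size of the change is uncertain. Slc12a2, which brings chloride in with potassium and sodium, had 21.1 and 19.8 against 58.3 and 55.9 (log2 change -1.48, adjusted p = 1.53e-07). Slc12a7, a further potassium-chloride cotransporter, was higher, with 73.9 and 79.5 against 48.8 and 44.0 (log2 change 0.73, adjusted p = 2.92e-05). The tested sodium pump beta subunits, Atp1b1, Atp1b2 and Atp1b3, did not pass.

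Other marker lists moved with the groups as well, on a background of 66.6% of all named genes called (45.3% higher and 21.3% lower). Of 6 tested neuron markers 5 were higher and 1 lower, and 2 higher and 1 lower with either normalization; their summed intensity was 344 to 355 in the libraries labelled positive and 277 in both labelled negative, with Snap25 below the limit. Astrocyte markers were lower in 3 of 4 tested and higher in 1 (summed 302 to 327 against 367 to 368), and oligodendrocyte markers lower in 3 of 5 (205 to 207 against 332 to 339). Mog, a protein of central myelin, had 0.985 and 1.01 against 42.0 and 43.8, and Aqp4 0.344 and 0.603 against 48.4 and 51.7. Fibroblast and meningeal markers had 1 higher and 2 lower of 4 (177 to 182 against 124 to 133), blood and immune markers 2 higher and 3 lower of 5 (89.7 to 93.4 against 155 to 165), and hair cell markers 0 higher and 1 lower of 2 (8.41 to 8.89 against 10.4 to 10.5). Each sum follows its brightest probes and is no measure of the amount of a cell type. Gjb6 among the astrocyte and Ogn among the fibroblast markers, the brightest of their lists, were higher. The part of these cells in the differences of the channel genes was not tested.

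**Figure D4:**
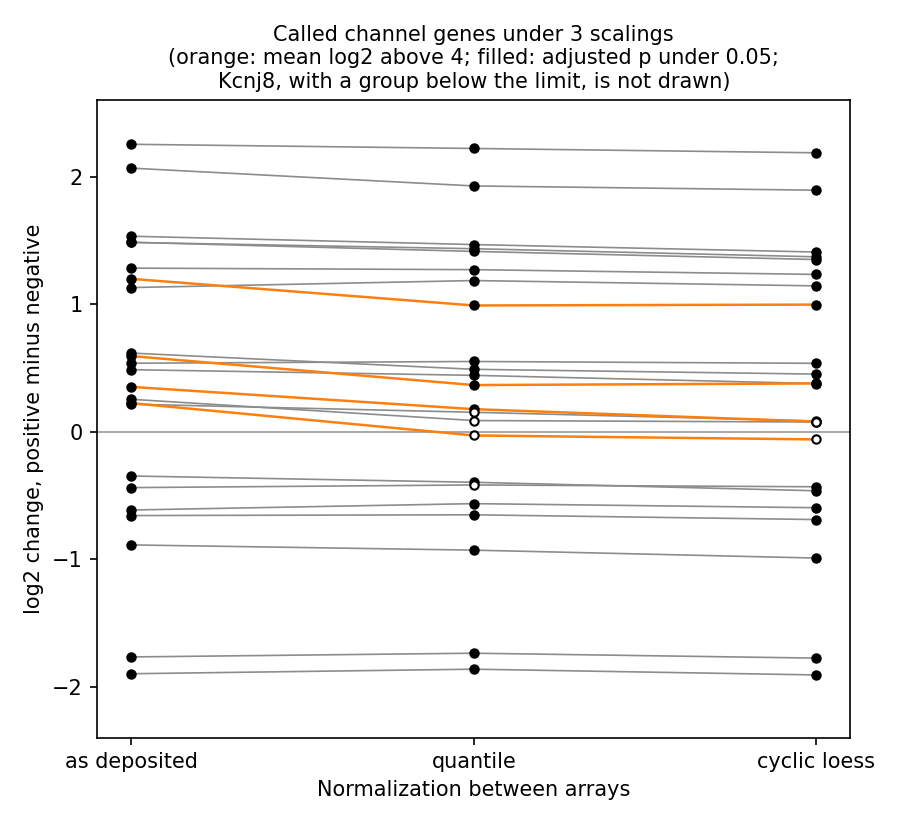
Log2 change, positive minus negative (y axis), of the called channel genes in the values as deposited and after quantile and cyclic loess normalization (x axis); filled points passed an adjusted p of 0.05, orange lines are probes with a mean log2 above 4, and Kcnj8, with a group below the limit, is not drawn. Changes beyond 1 log2 keep their direction, Kcnk2 going from 1.2 to 0.989 and 0.996, while Kcna2 and Kcnk1 come to lie near 0.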

How the data were processed

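The table that the authors deposited holds 1 linear intensity per probe and array. Array medians lie near 0.99; how the arrays were scanned, corrected for background and scaled is not stated in the labels or files used here. Values of -9999 were read as missing. Missing, zero and negative values, and those below the 1st percentile of an array's positive values (0.0154 to 0.0181), were set to that percentile before log2. No further normalization was applied.

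Names came from the platform annotation. In the first part of the table each was read at its own row, in the last part at the value 5 rows later, and between them not at all. This was checked on genes with probes in both parts: changes of pairs with a mean log2 above 1 on both probes correlated at r = 0.44 over 333 pairs when read 5 rows later and between -0.11 and 0.06 at the other steps from 0 to 10 rows. The check planned on levels did not tell the steps apart. Levels correlated at r = -0.00228 over 2030 pairs when read 5 rows later, and between -0.06 and 0.02 at the other steps. All 89 member probes had their gene ID in the rat gene table, with no change of symbol.

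All 21070 probes with a mean log2 at or above the 40th percentile entered a two-sided limma fit (version 3.58.1, R 4.3.3; lmFit, then eBayes with its variance prior following the mean level), adjusted by Benjamini-Hochberg with a threshold of 0.05; the smallest p of a permutation of 2 against 2 arrays would be 0.333. The brightest probe represents a gene. Named were members past the threshold with a change of at least 2-fold and groups that do not overlap, the brightest gene of each subfamily, a list of known channel genes, and genes with opposite calls; the remaining members were named after their values were seen. Members and lists were chosen with earlier results of these data known. The script was tested on simulated data. The number of arrays limits the precision. Figures were drawn with matplotlib 3.10.9.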

Additional observations from a re-analysis of the deposited data

How the results depend on the processing

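Over 17 settings and the 28 named channel genes that were tested, 417 of 454 values gave the same call and direction, 17 lost a call, 3 gained one and 17 changed sign. Quantile normalization gave -0.274 for Kcnd3 and -0.0303 for Kcnk1, and loess -0.263 for Kcna1, -0.2805 for Kcnd3 and -0.0615 for Kcnk1. The mean over probes gave 0.975 for Kcnab1 and -0.323 for Kcnj11, and the first part of the table alone 2.22 for Kcnab1; the values for Kcnab1 rest on a probe below the limit in the negative group and are no measure of size. With all names as deposited, a reading the paired probes do not bear out, Kcna1 had -0.849, Kcnab1 1.39, Kcnb2 -0.056, Kcnj13 -0.481, Kcnj8 0.97, Kcnk1 -0.0728, Kcnk2 -0.144, Kcnk5 -0.0516 and Kcnt1 0.191. Names of the first part alone, which leave fewer genes, gave 12 called channel genes, 7 higher and 5 lower, 4 of them at least 2-fold higher. These counts include Kcnab1 among those at least 2-fold higher and Kcnj8 among those lower. Either passed the filter only through 1 group and so had to differ. Without a filter on dim probes 5 channel genes were at least 2-fold lower and 4905 probes were called at least 2-fold; above the 60th percentile, which tests fewer probes, 2 channel genes were lower, 0 at least 2-fold (limma), and 3153 probes were lower and 1555 at least 2-fold different. Testing without the shared variance prior, an alternative chosen after seeing the data, called 15 channel genes (10 higher, 5 lower) and 7082 probes (4492 higher, 2590 lower), among them 10 of the 11 genes with an at least 2-fold change. Leaving out 1 array at a time, with the lone array taken to vary like the other group, gave 22 to 25 channel genes and 12262 to 12764 probes; calls were lost for Kcnk12 without positive replicate 1, for Kcnj5, Kcnk1 and Kcnt1 without positive replicate 2, for Kcnk1 and Kcnt1 without negative replicate 1 and for Kcnj5 and Kcnj6 without negative replicate 2. With the replicate number as a block 24 channel genes and 13711 probes were called; deviations of arrays with the same number correlated at r = 0.000556, so a shared number is treated as a name and not as a pairing. Apart from the settings said to test fewer genes or probes, the cause was not tested. The SD between arrays of a group was 0.36 log2 (positive) and 0.32 (negative) where the mean log2 lay below 0, and 0.09 and 0.08 where it lay above 4.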
